A study of Mus musculus with 4 samples.

Results

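Excitatory neurons of the mouse ventromedial prefrontal cortex (vmPFC) that carried the retrograde barcodes of both the agranular insular cortex (AI) and the mediodorsal thalamic nucleus (MD) are described here, with or without the barcode of the dorsomedial striatum (DMS). They were chosen by their barcode counts in the projectome libraries. A neuron was a member when its count of unique molecular identifiers (UMIs) was above 28 for AI and above 114 for MD, at most 35 for the basolateral amygdala (BLA) and at most 103 for the lateral hypothalamus (LH). DMS was valid above 101 UMIs. These thresholds are the ones at which the authors' joined matrix sets a count to 0, and the calls matched the deposited target labels in every neuron. The rule found 124 of 8210 excitatory neurons with a subtype. DMS was also valid in 96 of them (AI+DMS+MD) and not valid in 28 (AI+MD). Because barcode counts chose the neurons, every barcode value below is a description and was not tested.

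All samples came from male C57BL/6 mice given rAAV2-retro viruses that express EGFP with a barcode, 1 barcode for each of 5 targets, at 8 weeks of age. There were 4 libraries: 3 from single mice without sorting (unsorted 1, 2 and 3) and 1 from fluorescence-activated cell sorting of cells pooled over 3 mice (FAC-sorted), in which the mice cannot be told apart. No group without virus was analysed here, and the sorted library has no replicate. Subtypes, transcriptome UMIs and genes per cell were taken from the deposited annotation, and the reads behind each barcode UMI from the deposited read tables.

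A retrograde virus is taken up by axon terminals and carried to the cell body, so each barcode in a soma stands for the region where its virus was injected. In the cortex, corticothalamic neurons of layer 6 send axons to the thalamus, and intratelencephalic neurons of several layers send axons to other cortical areas and to the striatum. Syt6 marks corticothalamic neurons of layer 6 in mouse cortex. Read in this way, the barcodes of AI and MD together would stand for a cortical and a thalamic target of 1 cell. Whether the members project to both was not tested.

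The 3 designed barcodes on which the rule turns are given 5′ to 3′, because all counts below depend on telling them apart in a read. Capitals in AI and DMS mark the bases that differ from MD at the same position, and capitals in MD mark those that differ from AI.
AI: CtGCAcCgACGCATT
DMS: gAAggcACAGaCTTT
MD: GtTGGcTgCAATCCA
AI and MD differed at 12 of 15 positions, and DMS differed from each of them at 10. Reads were matched with up to 2 mismatches, and with exact matches alone 123 neurons met the rule, of which 117 were among the 124.

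The members were spread unevenly over the libraries. Unsorted 1 held 1, unsorted 2 held 21, unsorted 3 held 35 and the FAC-sorted library held 67. Among neurons with MD valid and without BLA or LH, AI was also valid in 1.47% of 68 in unsorted 1 (exact binomial Clopper-Pearson 95% interval, 0.0372% to 7.92%), in 19.6% of 107 in unsorted 2 (12.6% to 28.4%), in 43.2% of 81 in unsorted 3 (32.2% to 54.7%) and in 33.5% of 200 in the FAC-sorted library (27.0% to 40.5%). These intervals cover counting error only. The 3 mice treated alike thus ranged from 1.47% to 43.2%.

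The number of members per library moved with a limit on barcode UMIs. The authors left out cells above the 95th percentile of total barcode UMIs of their own library, which was 403.9, 486.2 and 529.3 UMIs in unsorted 1, 2 and 3 and 1012.3 in the FAC-sorted library. Before this step 36, 61, 88 and 72 cells had the pattern. The step removed 35, 39, 52 and 0 of them. Nearly all cells of unsorted 1 with the pattern were thus removed, and none of the FAC-sorted ones. Of the 126 removed cells, 123 had AI+DMS+MD and 3 had AI+MD. The removed cells have no annotation in the tables used here, so their cell type is not known. With the lowest of the 4 limits applied to all libraries, a setting chosen after the data were seen, 25 members stayed, 6 with DMS and 19 without, and the FAC-sorted library held 3 of them.

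DMS was valid in 0 of 1, 13 of 21 and 19 of 35 members of unsorted 1, 2 and 3, and in 64 of 67 FAC-sorted members. These shares moved with the limit on barcode UMIs, which removed mostly cells with DMS from the unsorted libraries. Before the limit, a count added after the data were seen, DMS was valid in 32 of 36, 52 of 61 and 72 of 88 cells with the pattern in unsorted 1, 2 and 3 and in 69 of 72 in the FAC-sorted library, or 88.9%, 85.2%, 81.8% and 95.8%. From the other side, among MD-valid neurons without BLA or LH, AI was valid in 65.3% of the 147 with DMS (57.0% to 73.0%) and in 9.06% of the 309 without (6.11% to 12.8%). Within libraries the same shares were 76.5% and 8.89% in unsorted 2, 95% and 26.2% in unsorted 3, and 58.2% and 3.33% in the FAC-sorted library. AI was thus valid more often with DMS than without it in each of the 3 libraries that had both kinds. These calls are not independent, because a UMI that occurs with several barcodes adds to each of them. Over all members, 78.4% of AI UMIs and 38.9% of DMS UMIs were shared with another barcode. The intervals of the pooled shares treat cells of different mice alike and cover counting error only. Whether AI and DMS validity go together apart from shared UMIs was not tested.

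Subtype names join a cortical layer with a marker gene, as in the deposited annotation. L6-Syt6 was the most frequent subtype of the members and also of all excitatory neurons with a subtype. It made up 90 of 124 members, or 72.6% (63.8% to 80.2%), against 58.7% of all 8210 neurons, followed by L5-S100b with 16, L2/3-Rorb with 6, L5-Bcl6 and L6-Npy with 5 each and L2/3-Calb1 with 2. No member was L5-Htr2c, which allows a share of up to 2.42%. The share of L6-Syt6 depended on the FAC-sorted library, which held 54.0% of the members. In unsorted 1, 2 and 3 it was 1 of 1, 18 of 21 (85.7%; 63.7% to 97.0%) and 33 of 35 (94.3%; 80.8% to 99.3%), whereas sorted cells gave 38 of 67 (56.7%; 44.0% to 68.8%). Of all neurons it made up 58.4%, 63.1% and 61.3% in unsorted 1, 2 and 3 and 49.1% in the FAC-sorted library, a share within the interval of the sorted members. Without the FAC-sorted library the share among members was 91.2%. The limit on barcode UMIs differed too, at 403.9, 486.2 and 529.3 in unsorted 1, 2 and 3 and 1012.3 in the FAC-sorted library. With the lowest limit applied to all libraries, 22 of 25 members were L6-Syt6 (88.0%), and 3 of the 25 were FAC-sorted. Whether the lower share among sorted members goes with sorting or with this limit was not tested. The other FAC-sorted members were 15 L5-S100b, 6 L2/3-Rorb, 4 L6-Npy, 3 L5-Bcl6 and 1 L2/3-Calb1 neurons.

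Of the 34 members of subtypes other than L6-Syt6, 33 had DMS valid as well, and 29 of the 34 came from the FAC-sorted library, where most members of any subtype had DMS valid. There DMS was valid in 28 of 29 members of other subtypes and 36 of 38 L6-Syt6 members. In unsorted 2 it was valid in 3 of 3 and 10 of 18, and in unsorted 3 in 2 of 2 and 17 of 33. Of the 28 AI+MD neurons 27 were L6-Syt6, and the remaining one was an L5-Bcl6 neuron of the FAC-sorted library. Of the 96 AI+DMS+MD neurons 63 were L6-Syt6, and all 16 L5-S100b, 6 L2/3-Rorb, 5 L6-Npy and 2 L2/3-Calb1 members were among them. In unsorted 2 and 3, the libraries with at least 5 neurons of both kinds, the L6-Syt6 share of AI+DMS+MD neurons minus that of AI+MD neurons was -23.1 and -10.5 percentage points. An exact two-sided sign-flip (permutation) test over these 2 libraries gave p = 0.5, the smallest it can give (Benjamini-Hochberg adjusted p = 0.583 over 7 such tests).

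Neurons with MD as the sole valid target, 281 in all, were almost entirely L6-Syt6. It made up 67 of 67, 80 of 82 and 43 of 45 of them in unsorted 1, 2 and 3, and 87 of 87 sorted ones. The remaining 4 were all L5-Bcl6. Members with and without DMS, counted as a single set, had a lower L6-Syt6 share than MD-only neurons in 3 of 3 libraries. In unsorted 2 and 3 only the AI+DMS+MD neurons were lower, with 10 of 13 and 17 of 19 L6-Syt6. The AI+MD neurons there were 8 of 8 and 16 of 16. In the FAC-sorted library the counts were 36 of 64 with DMS and 2 of 3 without. AI+MD neurons alone were not tested against MD-only neurons. The differences for all members were -11.8 points in unsorted 2, -1.27 in unsorted 3 and -43.3 in the FAC-sorted library. The mean difference was -18.8 ± 21.9 percentage points (SD, n = 3 libraries). The exact sign-flip test gave p = 0.25, which is the smallest value 3 libraries allow (adjusted p = 0.583). The difference is thus smaller than its spread over libraries, and without the FAC-sorted library it was -6.56 points. With the lowest of the 4 limits on barcode UMIs applied to all libraries it was -7.05 points over unsorted 2 and 3, since the FAC-sorted library then had 3 members. With thresholds recomputed on non-neuronal cells the mean was -3.79 points and the sign differed between libraries. The differences were then 2.88, -17.5 and 3.23 points in unsorted 1, 2 and 3. They rest on 5, 5 and 6 members, so a single neuron can turn the sign.

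AI+DMS neurons, which have the targets of AI+DMS+MD neurons without MD, were mostly of other subtypes. The members set against them below include the 28 AI+MD neurons. L6-Syt6 made up 3 of 68, 4 of 101 and 5 of 97 of them in unsorted 2, unsorted 3 and the FAC-sorted library, and L5-S100b was the most frequent subtype with 137 of 306. The L6-Syt6 share of the members was higher in 3 of 3 libraries, by 81.3, 90.3 and 51.6 points, with a mean of 74.4 ± 20.3 points (SD, n = 3). The mean was larger than the spread between libraries, and the exact sign-flip test again gave p = 0.25 (adjusted p = 0.583). DMS+MD neurons without AI were numerous in the FAC-sorted library alone, where 42 of 46 were L6-Syt6 (91.3%; 79.2% to 97.6%). The share of the members of that library minus this one was -34.6 points, a value from 1 library with no test.

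The median number of transcriptome UMIs was 24864, 27721 and 36908 in AI+DMS+MD neurons of unsorted 2, unsorted 3 and the FAC-sorted library. For AI+MD neurons it was 25664.5 in unsorted 2, 28920.5 in unsorted 3 and 42739 over the 3 FAC-sorted neurons, with 23453 in the neuron of unsorted 1. MD-only neurons had medians of 24782, 25180 and 26419 in unsorted 1, 2 and 3 and 36706 among sorted cells. The ratio of medians of all members to MD-only neurons was 0.987, 1.07 and 1.01 in unsorted 2, unsorted 3 and the FAC-sorted library, a mean log2 ratio of 0.030 ± 0.061 (SD, n = 3; exact sign-flip p = 0.75, adjusted p = 0.75). For detected genes the ratios were 1.00, 1.02 and 1.01 (exact sign-flip p = 0.5, adjusted p = 0.583). The median percent of mitochondrial UMIs differed by 0.519, -0.0459 and 0.394 points (exact sign-flip p = 0.5, adjusted p = 0.583). Each of the 3 measures changed sign between libraries. With the mean of log2 UMIs in place of the median, members were higher in 3 of 3 libraries, by 0.0049, 0.11 and 0.035 on the log2 scale in unsorted 2, unsorted 3 and the FAC-sorted library (mean 0.051, exact sign-flip p = 0.25, the smallest possible). Of the members, 5 of 21, 14 of 35 and 17 of 67 were above the 90th percentile of transcriptome UMIs of these libraries, against 15 of 82, 9 of 45 and 12 of 87 MD-only neurons.

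Depth differed between the subtypes of the FAC-sorted members. There the 38 L6-Syt6 members had a median of 41539.5 transcriptome UMIs and the 29 other members 33700. When only L6-Syt6 neurons were compared, the ratio of members to MD-only neurons was 1.00, 1.12 and 1.13 in unsorted 2, unsorted 3 and the FAC-sorted library (exact sign-flip p = 0.5). AI+DMS+MD neurons had 0.969 and 0.959 times the UMIs of AI+MD neurons in unsorted 2 and 3 (exact sign-flip p = 0.5, the smallest possible, adjusted p = 0.583). DMS+MD neurons of the FAC-sorted library had more UMIs than its members, with a ratio of members to them of 0.898 and no test.

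MD and DMS carried most of the barcode UMIs of the members, and AI few. In AI+DMS+MD neurons of unsorted 2, the AI count ran from 29 to 42 with a median of 33, the DMS count from 102 to 224 with a median of 118, and the MD count from 123 to 274 with a median of 188. In unsorted 3 the medians were 39 for AI, 118 for DMS and 248 for MD, with ranges of 30 to 106, 102 to 257 and 128 to 286. The FAC-sorted neurons had medians of 37 for AI, 163.5 for DMS and 212 for MD, and ranges of 29 to 179, 104 to 577 and 115 to 504. Whether their higher top counts go with sorting, with subtype or with the limit on total barcode UMIs was not tested. This limit is set by each library's own counts and caps the ranges at different levels. It was 486.2 and 529.3 in unsorted 2 and 3 and 1012.3 in the FAC-sorted library, so the ranges cannot be compared between libraries. AI was the highest count of the 3 in 0 of the 124 members. LH, not valid in any member, had a higher median count over all members than AI, 59.5 against 34. Its threshold was 103 against 28 for AI.

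The 28 AI+MD neurons stood close to the DMS threshold. Their DMS counts ran from 72 to 100 with a median of 89, and their AI counts from 29 to 48 with a median of 32. Their MD counts ran from 119 to 274 with a median of 211.5. The single member of unsorted 1 had 30 AI, 76 DMS and 212 MD UMIs. The 3 FAC-sorted neurons had 48, 99 and 120, then 29, 100 and 244, then 30, 99 and 274 UMIs of AI, DMS and MD. All 28 were thus within 29 UMIs of the DMS threshold on its lower side. MD-only neurons also carried DMS UMIs below the threshold, 5941 over 82 neurons in unsorted 2 and 3396 over 45 in unsorted 3. The AI+MD neurons of these libraries had 743 over 8 neurons and 1376 over 16.

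Most members also stood close to the AI threshold. The lowest member count was 29, and 98 of 124 members (79.0%) had at most 1.5 times the threshold, against 41 (33.1%) for MD. Among MD-valid neurons without BLA or LH that missed the AI threshold, 71 had an AI count of 25 to 28, 19 of them exactly 28. For MD the lowest member count was 115, and 24 neurons with AI valid had 100 to 113. BLA counts of members ran from 4 to 35 and LH counts from 30 to 102. Another 83 neurons had AI and MD valid but were left out by the rule, 46 for LH, 17 for BLA and 20 for both.

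AI counts below the threshold were also present in MD-only neurons. Their median AI count was 15, 20 and 23 in unsorted 1, 2 and 3 and 19 in the FAC-sorted library. Expressed per 100 MD UMIs of the same neuron, the median was 10.2, 12.5, 14.1 and 10.7 in the same order. It was 18.1, 16.3 and 15.8 in AI+DMS+MD neurons of unsorted 2, unsorted 3 and the FAC-sorted library, and 15.5, 18.0 and 11.9 in AI+MD neurons of the same libraries. The threshold on AI itself favours a higher ratio in members. Among L6-Syt6 neurons alone the median was 15.6 in members and 12.5 in MD-only neurons of unsorted 2, 16.3 and 14.1 in unsorted 3, and 11.0 and 10.7 among sorted cells. The 29 FAC-sorted members of other subtypes had 31.7. In the unsorted libraries, higher MD counts came with higher or equal AI counts as deposited. When the MD-valid neurons of a library without BLA or LH were divided into 4 equal bins by their MD count, the median AI count from the lowest to the highest bin was 12, 16, 17 and 20 in unsorted 1 and 18, 19, 24 and 27 in unsorted 2. It was 23, 23, 27.5 and 37 in unsorted 3 and 22, 19, 23 and 29.5 in the FAC-sorted library. With a UMI that occurs with several barcodes given to the one with the most reads, the AI medians of the bins did not rise by more than 1 UMI from the lowest to the highest bin. Unsorted 1 had 1, 2, 2 and 2, and unsorted 2 had 2, 2, 3 and 2. Unsorted 3 had 4, 2, 3 and 3, and the FAC-sorted library had 7, 5, 6 and 5. As deposited, AI was valid in 11.1%, 3.70%, 19.2% and 44.4% of these bins in unsorted 2. In unsorted 3 it was valid in 23.8%, 25.0%, 40.0% and 85.0%. In the FAC-sorted library the shares were 38.0%, 18.0%, 20.0% and 58.0%, highest at both ends. The single member of unsorted 1 was in the highest bin.

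Which barcode led in a member went with its subtype. MD exceeded DMS in 84 of the 90 L6-Syt6 members, and DMS exceeded MD in 29 of the 34 members of other subtypes. In the FAC-sorted library the L6-Syt6 members had median counts of 34 for AI, 129 for DMS and 317 for MD. The 15 L5-S100b members had 44, 411 and 133, and the 6 L2/3-Rorb members 46.5, 385.5 and 130. The 4 L6-Npy members had 68, 306 and 139, whereas MD led in the 3 L5-Bcl6 members, with 32, 134 and 222. The DMS counts of the FAC-sorted L6-Syt6 members ran from 99 to 370 and overlapped those of the L5-S100b (259 to 568), L2/3-Rorb (351 to 577) and L6-Npy members (234 to 499). Subtype was not used by the rule, and this contrast rests mostly on 1 library and was not tested.

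Many UMIs of the members occurred with more than 1 barcode in the same cell. In the deposited counts such a UMI adds to each of these barcodes. In AI+DMS+MD neurons, 90.8%, 84.7% and 72.8% of the AI UMIs of unsorted 2, unsorted 3 and the FAC-sorted library were shared with another barcode. In AI+MD neurons of unsorted 2 and 3 the share was 89.8% and 87.1%, and it was 57.0% over the 107 AI UMIs of the 3 FAC-sorted ones. In MD-only neurons, where the AI count lies below its threshold, it was 88.7%, 86.5%, 87.7% and 71.7% in unsorted 1, 2 and 3 and the FAC-sorted library. MD UMIs were shared less, with 37.9%, 35.5% and 29.7% in AI+DMS+MD neurons of unsorted 2, unsorted 3 and the FAC-sorted library. AI+DMS neurons had shares for AI of 55.9% in unsorted 2, 63.2% in unsorted 3 and 42.0% in the FAC-sorted library, below those of the members in each.

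For a shared UMI, the barcode with the most reads was found. Over the 124 members there were 4994 AI UMIs. MD had the most reads of the same UMI for 51.4% of them, DMS for 20.3%, LH for 1.76% and AI for 3.40%, with 1.54% tied and 21.6% not shared. The FAC-sorted library held 2957 of these UMIs, and the libraries differed. MD led for 71.2% and DMS for 12.7% in unsorted 2, for 72.8% and 6.28% in unsorted 3, and for 36.9% and 28.5% in the FAC-sorted library. Over the 3 unsorted libraries MD led for 72.4% and DMS for 8.39%. A UMI that AI shared with a barcode of more reads had a median of 1 AI read, against a median of 335.5 reads over all its barcodes. Because most AI+DMS+MD neurons were FAC-sorted and most AI+MD neurons unsorted, these are compared within libraries. In AI+DMS+MD neurons MD led for 64.9% of AI UMIs and DMS for 19.5% in unsorted 2, and for 66.8% and 9.95% in unsorted 3. In AI+MD neurons the shares were 81.6% and 1.5% in unsorted 2, and 81.8% and 0.768% in unsorted 3. FAC-sorted AI+DMS+MD neurons had 36.6% and 29.5%. In the single member of unsorted 1, MD led for 83.3% of its 30 AI UMIs and the other 16.7% were not shared. An AI UMI that was not shared had a median of 1 read too, and 60.4% of all AI UMIs of the members had 1 read. MD and DMS UMIs of the members that were not shared also had a median of 1 read, and 55.4% of MD and 49.4% of DMS UMIs had 1 read.

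Under an alternative count that gives a shared UMI to the barcode with the most reads, the AI count of the members fell far below its threshold. The median was 3, 4 and 7 in AI+DMS+MD neurons of unsorted 2, unsorted 3 and the FAC-sorted library, and 3.5 and 4 in AI+MD neurons of unsorted 2 and 3. MD-only neurons had a median of 2 in each unsorted library and 5 in the FAC-sorted one, and AI+DMS neurons had 13, 10 and 32 in unsorted 2, unsorted 3 and the FAC-sorted library. MD changed little in the members of unsorted 2 and 3, with medians of 181 and 236 in AI+DMS+MD neurons and 216.5 and 186 in AI+MD neurons. In the FAC-sorted library the MD median of AI+DMS+MD neurons was 193.5, and it was 302 in the 38 L6-Syt6 members (317 as deposited) but 73 in the 29 members of other subtypes (135 as deposited), below the threshold. DMS medians of AI+DMS+MD neurons fell from 118 to 44 in unsorted 2, from 118 to 34 in unsorted 3 and from 163.5 to 99.5 in the FAC-sorted library. Over all members the LH median was 14 under this count, against 6 for AI. Counting in addition only UMIs of at least 2 reads left a median of 1 AI UMI per member, with a highest value of 84, and a median of 90 MD UMIs.

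With the thresholds held, 8 of 124 members kept AI and 90 kept MD under this count, and 38 of the 96 AI+DMS+MD neurons kept DMS. The last share depended on the FAC-sorted library, since DMS was kept in 4 of 13 and 2 of 19 in unsorted 2 and 3, or 6 of 32 without the FAC-sorted library, and in 32 of 64 FAC-sorted neurons. By comparison, 266 of 281 MD-only neurons kept MD, and 127 of 306 AI+DMS neurons kept AI. At the held thresholds the members became MD alone in 82 cases, DMS alone in 24, DMS+MD in 7 and AI+DMS in 6. AI alone was left in 1 and AI+DMS+MD in 1, and 3 had no valid target. These thresholds were set on counts that include shared UMIs. The DMS threshold recomputed under this count, described below, was 62 against the held 101, so the loss of DMS depends on the threshold. Of the 82 with MD alone 80 were L6-Syt6, and of the 24 with DMS alone 20 were other subtypes. Of the 24 with DMS alone 21 were FAC-sorted, 18 of them other subtypes, so this division rests mostly on 1 library. Unsorted 2 had 2, both of other subtypes, and unsorted 3 had 1, an L6-Syt6 neuron.

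None of the 90 L6-Syt6 members kept AI at the held threshold of 28, which was set on counts that include shared UMIs. At the threshold of 11 recomputed under this count, described below, 3 L6-Syt6 members were above it. The 8 members that kept it were 4 L5-S100b, 2 L6-Npy, 1 L2/3-Rorb and 1 L5-Bcl6 neurons, 7 of them FAC-sorted and 1 from unsorted 3. Their AI counts were 48 to 179 as deposited and 33 to 156 under this count, whereas the other 116 members had 29 to 58 and 0 to 21. No member thus lay between 21 and 33 under this count. These 8 neurons were named after their values were seen. One of them, an L6-Npy neuron of the FAC-sorted library with 29075 transcriptome UMIs, kept AI and MD together. Its counts were 164 for AI, 234 for DMS and 213 for MD as deposited, and 140, 161 and 142 with shared UMIs given to the leading barcode.

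The thresholds had been set on counts that include shared UMIs, so they were also recomputed. The methods of the study took the higher threshold from a pair of control sets, and the sorted control cells were not used here, so the recomputed values rest on a different rule from the thresholds that chose the members. As the 99.9th percentile over 9822 annotated non-neuronal cells, the alternative count gave thresholds of 11 for AI, 62 for DMS and 71 for MD. Above these were 11 members for AI, of which 3 were L6-Syt6, 110 for MD and 8 for both AI and MD, whatever their BLA and LH counts. For DMS, the medians of AI+DMS+MD neurons in unsorted 2 and 3 under this count, 44 and 34, were below 62. In the FAC-sorted library the lower quartile was 63.75, so most of these neurons were above 62, against 32 of 64 above the held threshold. On the counts as deposited, the same percentile was 23 for AI and 71 for MD, while BLA had 10 and LH had 40. Of the 124 members, 117 had more BLA UMIs than this, 111 more LH UMIs, and 119 at least one of them. Only 5 members stayed members, together with 13 other neurons.

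Cell barcodes and cell types were checked for the members. Over the 4 libraries 82 cell barcodes occurred more than once among 24788 cells, and none was that of a member. Of the 131 cells with the pattern that were not removed, 7 had no subtype. They were 2 excitatory neurons, 1 oligodendrocyte and 4 cells without annotation, and none was annotated as inhibitory. Gene expression was not analysed here, so the subtypes could not be checked against their marker genes. Whether some members held 2 cells was not tested. When the deepest neurons, those over the 90th percentile of their library in transcriptome UMIs, were left out, 88 members remained, of which 57 were L6-Syt6.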

How the data were processed

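For each of 4 libraries the deposited read table lists projectome reads by cell barcode, UMI and virus barcode. UMI counts of each barcode in each cell are also deposited. The authors produced them with a modified deMULTIplex, allowing 2 mismatches, without normalization. The joined matrix holds the same counts with those at or below threshold set to 0. The deposited annotation gives transcriptome UMI counts, detected genes and the percent of mitochondrial UMIs per cell, computed by the authors after Cell Ranger alignment to mm10. In the tables that cover all libraries, 26 further columns were left unused. The libraries held 20443286, 30613665 and 32895529 reads (unsorted 1, 2 and 3) and 30272582 (FAC-sorted).

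Reads were matched to the barcodes, and UMIs per cell and barcode were recounted. The recount differed from the deposited counts in 14740 of 123940 entries, each with 1 UMI in the recount and 0 in the table. The members, comparisons and alternatives were chosen with earlier results of these data known. No gene was tested or named as a result. The items named were the targets, 7 subtypes and the patterns AI+DMS+MD, AI+MD, MD only, DMS+MD and AI+DMS.

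Cells are not replicates. Differences were taken within libraries with at least 5 neurons in both sets and tested over libraries by exact two-sided sign flips, with Benjamini-Hochberg adjustment over 7 tests. Nothing in the labels says that the FAC-sorted pool is comparable with a single mouse. Shares have exact binomial intervals, and a share of 0 the limit of 3 counts. The alternatives were other ways of counting UMIs, other thresholds, a limit on transcriptome UMIs, pooled neurons and libraries left out. Scripts were tested on simulated data. Python 3.11.15, numpy 2.4.6, pandas 2.3.3 and scipy 1.17.1 were used.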

Additional observations from a re-analysis of the deposited data

Results flagged for a closer look

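The same barcode pattern also occurred in cells outside the comparisons. Among the cells that the authors left out for their high number of barcode UMIs, 126 had AI and MD above and BLA and LH at or below the thresholds. They were about as many as the 124 members themselves. They were 35, 39 and 52 cells of unsorted 1, 2 and 3. Their median total was 712, 655 and 768 barcode UMIs, against 358, 430 and 419 in the members of these libraries, and this order follows from the limit on barcode UMIs that removed them. Whether they are single neurons was not tested.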

How the results depend on the processing

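The number of members rested on how UMIs were counted and on the thresholds. With each shared UMI given to its leading barcode, 1 neuron met the rule (1 with DMS, 0 without), and with shared UMIs dropped the numbers were the same. UMIs of at least 2 reads also gave 1 (1 and 0), a different neuron, of L6-Syt6. Thresholds multiplied by 1.5 gave 20 (13 and 7), and thresholds recomputed on non-neuronal cells gave 18 (6 and 12). With thresholds recomputed under the same counting, an alternative chosen after the data were seen, the numbers were 9 (7 and 2) for shared UMIs to the most reads, 7 (5 and 2) for shared UMIs dropped and 35 (18 and 17) for UMIs of at least 2 reads. The lowest barcode UMI limit for all libraries gave 25 (6 with DMS), and leaving out deep neurons 88 (18 without DMS). Leaving out 1 library gave 57 to 123 members, 32 to 96 with DMS and 12 to 27 without, the lowest without the FAC-sorted library for the first 2 (57 and 32) and without unsorted 3 for the last (12).

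The L6-Syt6 share of members was 0% with shared UMIs given to the most reads or dropped and 100% with at least 2 reads (1 neuron each). It was 42.9% with shared UMIs dropped and 80% with at least 2 reads under recomputed thresholds, 80% with thresholds multiplied by 1.5, 88.9% with recomputed thresholds, 88.0% with the lowest limit and 64.8% without deep neurons. Leaving out 1 library gave 64.0% (without unsorted 3) to 91.2% (without the FAC-sorted library).

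The difference in L6-Syt6 share, a mean over libraries unless stated below, kept its sign in all alternatives that gave a value. It was -27.6 to -3.79 points against MD-only neurons and 66.4 to 89.6 points against AI+DMS neurons. The libraries did not all share that sign for the -3.79 points, from recomputed thresholds (exact sign-flip p = 1). The differences there were 2.88, -17.5 and 3.23 points in unsorted 1, 2 and 3, from 5, 5 and 6 members. Thresholds multiplied by 1.5 gave a value in the FAC-sorted library alone (-21.3 and 71.5 points, no test). The same held for shared UMIs to the most reads under recomputed thresholds (-14.3 and 83.4 points). Neurons of all libraries pooled gave -26.0 and 68.0 points, with no test. With shared UMIs given to the most reads, shared UMIs dropped or at least 2 reads at the fixed thresholds, no library had 5 members and no difference could be had. The log2 ratio of transcriptome UMIs was -0.071 with at least 2 reads and 0.376 with shared UMIs to the most reads (1 library, no test) under recomputed thresholds, and -0.0041 to 0.054 when 1 library was left out, below 0 without unsorted 3. With 2 or 3 libraries no sign-flip test could pass 0.05. Apart from the alternative that pooled neurons, differences between sets were taken within libraries, so they are paired by library. By replicate number, no paired analysis was possible because the unsorted and FAC-sorted groups share only the number 1. Unsorted 1 has 1 member under the main rule and entered no test there. With thresholds recomputed on non-neuronal cells it had 5 members and entered the tests of that alternative. The cause of these shifts was not tested.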
